A study of Danio rerio with 12 samples.

Results

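The ion channel and synapse genes of zebrafish embryos were followed on an oligonucleotide array. The rule that picks the members uses gene symbols and no measured values. Members were the probe sets whose platform symbol begins with kcn, scn and a digit, cacn, gria, grin and a digit, gabr, glra, chrn, syt and a digit, snap25, syn1, syn2, stx1, vamp, elavl, stmn, gad1 or gad2. This gave 66 of the 15502 probe sets that were not array controls. Of these, 65 carried 1 symbol and stood for 56 of 8793 named genes, and 1 carried 2 symbols, of which syn2b is a member name, and was counted without being named as a gene. By role they comprised 4 probe sets for sodium channels, 8 for potassium channels and 5 for calcium channels. Another 2 were for AMPA, 2 for NMDA, 2 for GABA-A, 5 for glycine and 5 for nicotinic acetylcholine receptors. There were 8 for synaptotagmins, 9 for SNARE proteins, 2 for synapsins, 2 for glutamate decarboxylases, 8 for elavl and 4 for stmn genes. No probe set had vamp2, syn2a, syn2b or stmn2b as its only symbol.

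Total RNA came from whole embryos at 80 hours post fertilization, with 3 arrays for each of 4 genotypes. BRAF;p53 embryos carried the transgene mitf-BRAFV600E, described as stable and homozygous, on a p53-M214K -/- background. BRAF embryos carried the same transgene with intact p53, p53 embryos were p53-M214K -/- without it, and wild-type embryos were of the Tu strain. The transgene's mitf promoter works in the pigment cell lineage, so it was not aimed at neurons or muscle, while the p53 mutation was present in every cell. Parents of the stated genotype were incrossed, and the number of embryos or clutches behind an RNA sample is not given in the sources used here. The p53 samples numbered 1 and 2 here are named 1a and 1b in the source labels, and the third is named 2. A p-value here reflects no more than the variation among these samples, some of which may be technical. The comparisons asked what activated BRAF changes with and without p53 function. The genotype labels of BRAF;p53, BRAF and p53 embryos name no strain. A difference from wild type therefore cannot be told apart from a difference between lines, and this holds for any value that uses BRAF minus wild type. The term BRAF effect below names such a difference between groups.

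Voltage-gated sodium, potassium and calcium channels shape the action potential of neurons and muscle, and calcium entry at the nerve ending triggers release of transmitter. There, synaptotagmins sense the calcium and SNARE proteins fuse the vesicle with the membrane, and ligand-gated receptors for glutamate, glycine, GABA and acetylcholine answer on the receiving cell. The elavl and stmn genes encode RNA-binding and microtubule-binding proteins, several of which are widely used to mark neurons. Not all members are neuronal: cacng1a, chrna1 and chrne encode channel and receptor subunits of skeletal muscle, stx11a is known in mammals from immune cells, and elavl1a and elavl1b are expressed in most tissues.

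Values were deposited on a log2 scale and centred on each probe set, so 0 is the middle of the 12 arrays and not absence, and brightness is unknown. For 59 members the median on the linear scale was 1, and for 7 it lay below 1 (gabrr2b, both stx11a probe sets, chrna7a, kcnk5a, kcnn1b and scn1laa). Neither levels between genes nor absence of a cell type from the embryos could be read from such values. There were 2 arrays that stood apart from their genotype. BRAF replicate 1 correlated over all probe sets at 0.56 and 0.41 with the other BRAF arrays, which correlated at 0.83 with each other. For p53 replicate 3 these correlations were 0.47 and 0.48, against 0.75 between the samples named 1a and 1b. The labels do not say whether 1a and 1b came from separate embryos. A fit without p53 replicate 3 may thus rest on 1 independent p53 sample, and its p-values may then be too small.

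Across the 66 members, few differences between genotypes passed the test. BRAF;p53 against wild type had 1 member (1.52%) past the adjusted p threshold of 0.05 in limma, and it was lower. Over all 15502 probe sets, 1.95% passed in that comparison, 0.974% higher and 0.974% lower. BRAF against wild type gave 1 higher and 1 lower member (3.03%), while 6.41% of all probe sets passed, 3.19% higher and 3.22% lower. In p53 against wild type 0 members passed, against 1.83% of all probe sets, and at an unadjusted p below 0.05 it was 3 members (4.55%) against 14.3%. The members' shares in these comparisons lay at or below those of all probe sets.

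The comparisons among mutants gave the same kind of count. BRAF;p53 against p53 had 1 lower member that passed in limma, where 2.94% of all probe sets passed, 1.5% higher and 1.44% lower. BRAF;p53 against BRAF also had 1 lower member, against a background of 4.5%, of which 2.03% were higher and 2.48% lower. At an unadjusted p below 0.05 it had 12 members (18.2%) against 22% of all probe sets. The interaction, the BRAF effect in p53 mutants minus that with intact p53, gave 1 higher member against a background of 3.21%, of which 1.61% were higher and 1.6% lower. A moderated F test over the 3 comparisons with wild type passed for 2 members (3.03%), cacng1a and kcnn1b, where 9.43% of all probe sets passed.

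Medians of the members lay near 0 in every comparison. The median log2 difference was 0.00 in BRAF;p53 against wild type, -0.03 in BRAF against wild type and 0.04 in p53 against wild type. Over all probe sets the same medians were -0.01, 0.05 and 0.00. In the comparisons between mutants the members' medians were -0.05 for BRAF;p53 against p53 and -0.00 for BRAF;p53 against BRAF, with -0.01 and -0.06 over all probe sets. In the interaction the median was -0.08 for the members and -0.04 over all probe sets. Of the 66 members, 33 were higher and 33 lower in BRAF;p53 against wild type, 30 and 36 in BRAF against wild type, and 42 and 24 in p53 against wild type. These higher shares were 50%, 45.5% and 63.6%, against 46.1%, 57.9% and 50.3% of all probe sets. In BRAF;p53 against p53 26 were higher and 40 lower (39.4% higher, against 47.5% of all). For BRAF;p53 against BRAF it was 32 and 34 (48.5% against 39.6%), and for the interaction 24 and 42 (36.4% against 44.6%).

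The precision of these estimates bounds what could have been missed. The 95% interval of the difference lay wholly within 1 on the log2 scale, a factor of 2, for 58 members in BRAF;p53 against wild type, for 58 in BRAF against wild type and for 59 in p53 against wild type. The median distance from the estimate to the end of its interval was 0.32 for a pairwise difference. These intervals used a spread pooled over the genotypes, and the genotypes differed in spread. The median SD of a member was 0.23 in BRAF embryos and 0.17 in p53 embryos. It was 0.10 in BRAF;p53 embryos and 0.11 in wild type. Intervals for BRAF against wild type may thus be too narrow, and those for BRAF;p53 against wild type too wide. With the pooled spread, changes of more than a factor of 2 lay outside the interval for most members. For BRAF embryos this bound is less certain. In whole embryos, fewer cells of a type and less RNA per cell cannot be told apart.

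**Figure D1:**
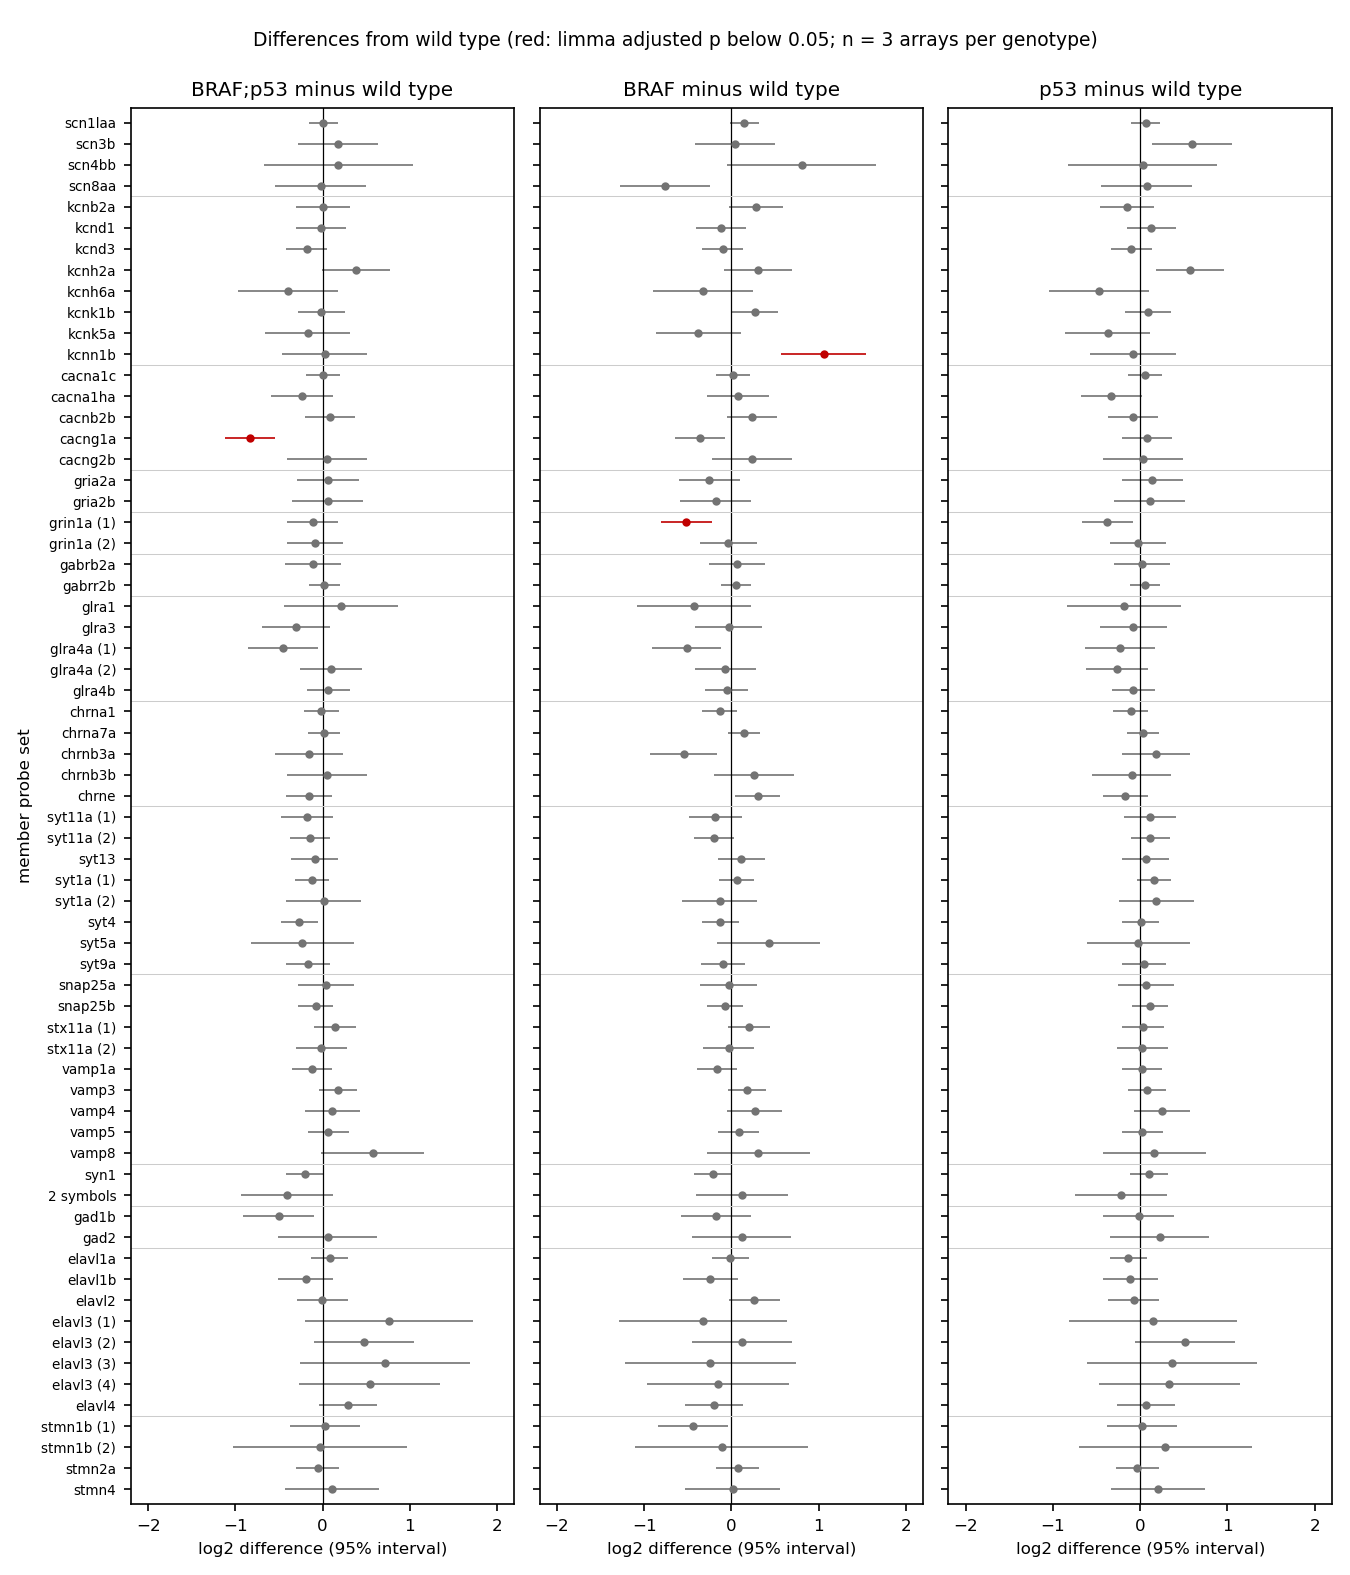
Log2 differences of BRAF;p53, BRAF and p53 embryos from wild type for the 66 member probe sets, with 95% intervals from limma (3 arrays per genotype). Red marks the 3 member results with an adjusted p below 0.05: cacng1a in BRAF;p53, and kcnn1b and grin1a in BRAF. The panels share the wild-type arrays, and the p53 panel holds no red point.

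A count by overlap gave member shares below those of all probe sets, except in BRAF;p53 against p53. The arrays of BRAF;p53 and wild type did not overlap for 16 members (24.2%), 6 higher and 10 lower, against 25.3% of all probe sets. For BRAF against wild type it was 12 members (18.2%) against 28.4%, and for p53 against wild type 8 (12.1%) against 19.1%. For BRAF;p53 against p53 it was 19 members (28.8%) against 21.9%. Of these members 6 were higher and 13 lower, while over all probe sets 1832 were higher and 1564 lower. In BRAF;p53 against BRAF it was 18 members (27.3%) against 29% of all probe sets. The 3 comparisons with wild type share their wild-type arrays, so they are not independent of each other.

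**Figure D2:**
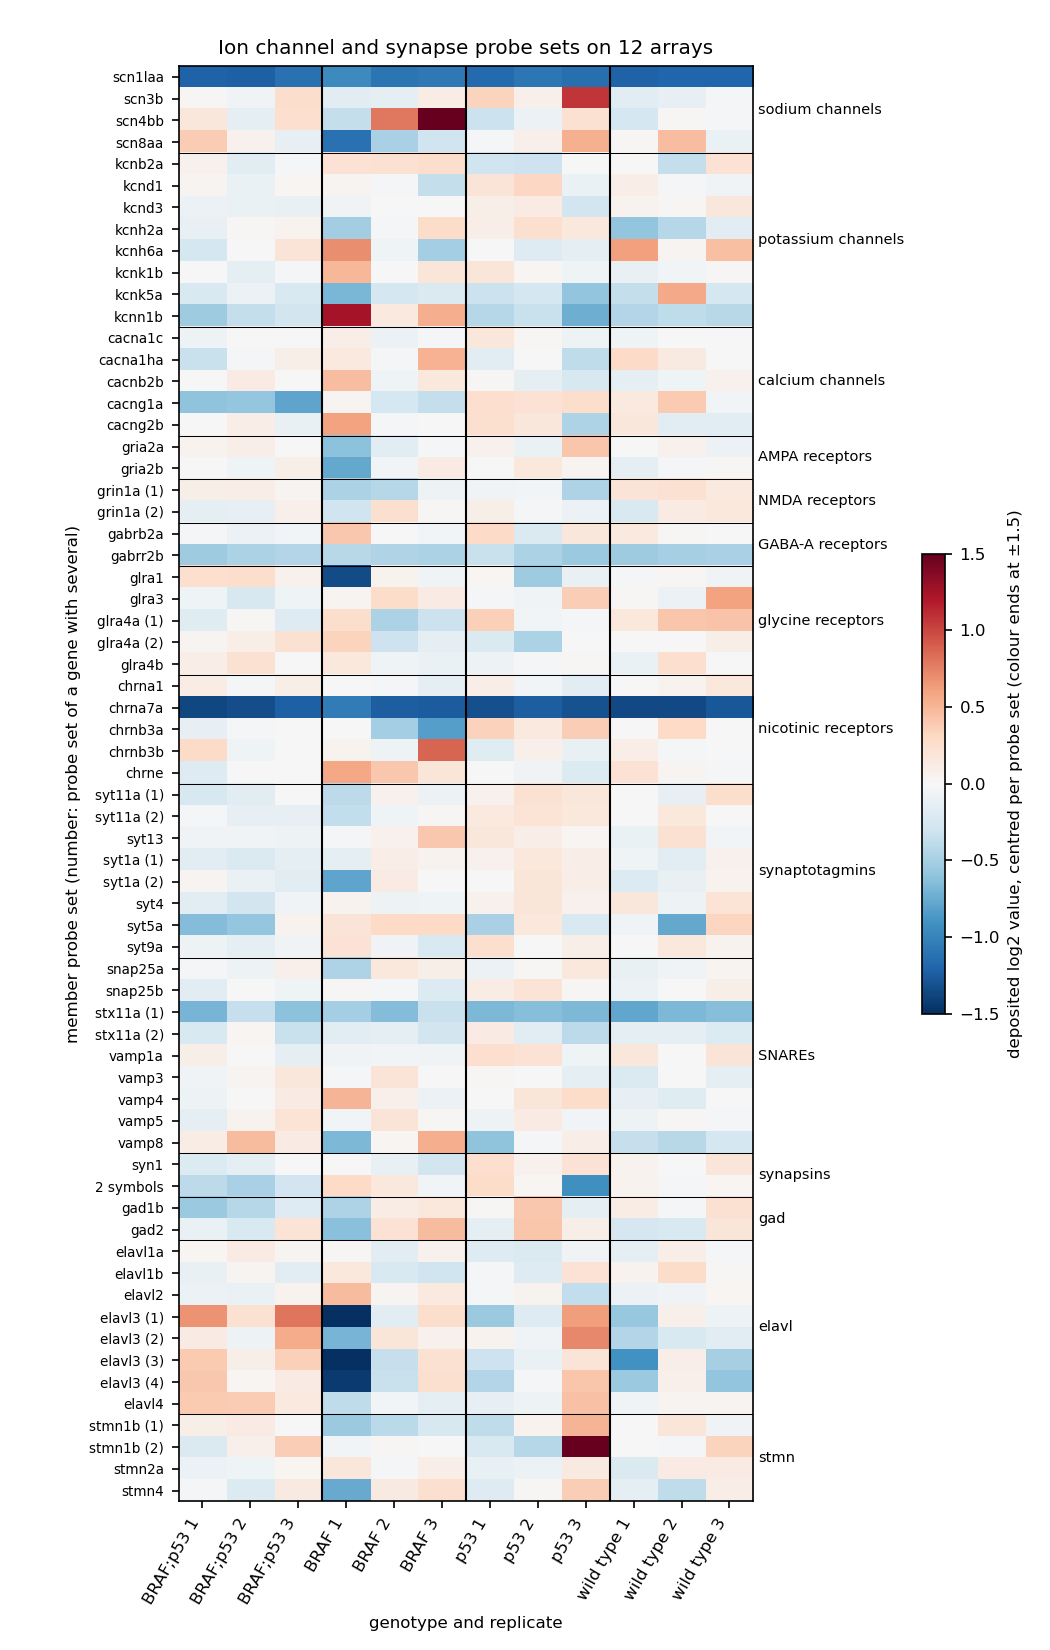
Deposited log2 values of the 66 member probe sets (rows, grouped by role) on the 12 arrays (columns), with colour ending at 1.5 above and below 0. The dark rows of scn1laa and chrna7a are probe sets whose median was not set to 1, and the lowest value of each elavl3 row lies on BRAF replicate 1.

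Of the calcium channel genes, cacng1a was lower in BRAF;p53 embryos. It encodes the gamma-1 subunit of the voltage-gated calcium channel of skeletal muscle, the channel that couples excitation to contraction. Its probe set (Entrez gene 322013) read -0.61, -0.59 and -0.79 in BRAF;p53 embryos, against 0.15, 0.40 and -0.04 in wild type. BRAF embryos read 0.04, -0.26 and -0.36, and p53 embryos 0.26, 0.22 and 0.27. The 3 BRAF;p53 arrays were the lowest of all 12 and overlapped with no other genotype, whereas BRAF and wild-type arrays overlapped. The difference from wild type was -0.83 ± 0.13 (log2, SE, n = 3 each, 95% interval -1.12 to -0.54), 1.78-fold lower, with an adjusted p of 0.00703 in limma. Against p53 embryos the difference was -0.91 ± 0.13 with an adjusted p of 0.00377 in limma, and against BRAF embryos it was -0.47 ± 0.13 with 0.0707. BRAF against wild type stood at -0.36 ± 0.13 (adjusted p 0.143 in limma). Without BRAF replicate 1 that value was -0.48, with an adjusted p of 0.044 in limma.

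The cacng1a result was carried by no single array. It passed in all 12 fits that left out an array in turn, with differences from wild type between -0.93 and -0.71 and adjusted p-values in limma of at most 0.0378, and in the 9 other settings refitted for that comparison. With an absolute log2 difference of at least 1 required as well, it was not called. Against p53 it also passed in 12 of 12, with at most 0.0205. The interaction was -0.55 ± 0.19 and did not pass in limma (adjusted p 0.144), so a different BRAF effect with and without p53 was not shown for this gene.

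No gene of a separate skeletal muscle list passed in the same comparison. musk, a gene of the neuromuscular junction counted with the postsynaptic genes below, was higher there, at 0.60 (adjusted p 0.0464 in limma). Of 16 muscle genes listed beside the members, 13 were measured, on 15 probe sets, and 0 probe sets passed in BRAF;p53 against wild type. Over all probe sets 1.95% passed there. With so few muscle probe sets, 0 calls lie near that share and do not set cacng1a apart from other muscle genes. Of the 13 genes, 4 lay above 0 and 9 below. Their median difference was -0.01, with a range of -0.40 for acta1a, a skeletal actin, to 0.07 for desma, the intermediate filament desmin. The mean of the 13 genes per array ran from -0.02 to 0.03 in BRAF;p53 embryos, against -0.01 to 0.09 in wild type. The other muscle subunits among the members were close to wild type in BRAF;p53 embryos, chrna1 at -0.01 and chrne at -0.15, neither of which passed.

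The other 4 calcium channel genes did not pass. They were cacna1c, the L-type pore of heart and smooth muscle, cacna1ha, a T-type pore, cacnb2b, a cytoplasmic beta subunit, and cacng2b, a subunit known in mice for carrying AMPA receptors to the membrane. Their differences in BRAF;p53 against wild type lay between -0.24, that of cacna1ha, and 0.08. The cacna1ha value was also -0.33 in p53 against wild type, with an adjusted p of 0.387 in limma.

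**Figure D3:**
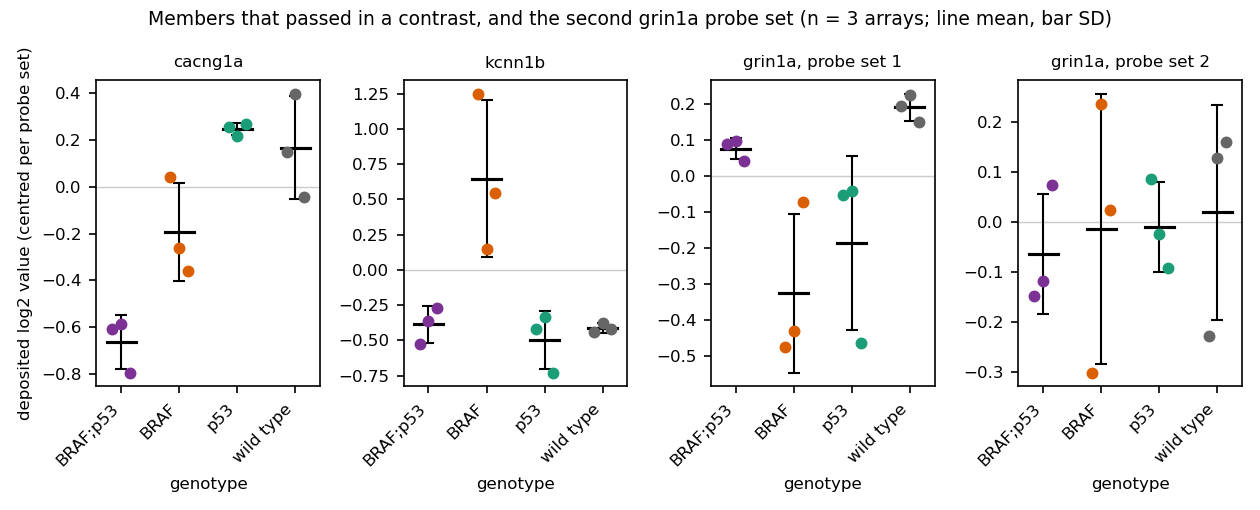
Deposited log2 values of the 3 member probe sets that passed in a comparison, and of the second grin1a probe set, with points for the 3 arrays, a line for the mean and a bar for the SD of each genotype. Each panel has its own scale. The 3 BRAF;p53 points of cacng1a and the 3 BRAF points of kcnn1b stand clear of the other genotypes, while the second grin1a probe set overlaps throughout.

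Among the potassium channel genes, kcnn1b was higher in BRAF embryos. It encodes a small-conductance channel opened by calcium, which in neurons sets the pause after a spike. Its probe set (Entrez gene 570401) read 1.25, 0.15 and 0.55 in BRAF embryos, against -0.44, -0.38 and -0.42 in wild type. BRAF;p53 embryos read -0.53, -0.36 and -0.27, and p53 embryos -0.42, -0.34 and -0.73. The 3 BRAF arrays were the highest of all 12 but differed widely among themselves, and the remaining 9 overlapped. BRAF exceeded wild type by 1.06 ± 0.22 (log2, SE, n = 3 each, 95% interval 0.57 to 1.55), 2.08-fold higher, with an adjusted p of 0.0157 in limma. BRAF;p53 lay below BRAF by -1.03 ± 0.22, with an adjusted p of 0.0246 in limma, and differed from wild type by 0.03. The interaction was -0.95 ± 0.31 with an adjusted p of 0.135 in limma.

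The kcnn1b calls sat close to the threshold. BRAF against wild type was not called without wild-type replicate 1, 2 or 3, with adjusted p-values in limma of 0.0548, 0.0503 and 0.051. BRAF;p53 against BRAF was not called without BRAF;p53 replicate 1, 2 or 3, with 0.106, 0.0827 and 0.0539. Both were called without BRAF replicate 1, the array that stood apart. Neither was called when only the genotypes compared were fitted. The adjusted p-values in limma were then 0.0821 for BRAF against wild type and 0.082 for BRAF;p53 against BRAF. The probe set is among the 7 whose median lay below 1.

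The other 7 potassium channel genes did not pass. The nearest was kcnh2a, related to the human heart channel hERG, which read -0.11, 0.01 and 0.05 in BRAF;p53 embryos, -0.53, -0.01 and 0.28 in BRAF embryos, and 0.10, 0.24 and 0.16 in p53 embryos, against -0.59, -0.43 and -0.17 in wild type. The BRAF;p53 and p53 arrays all lay above the wild-type arrays, and the BRAF arrays overlapped with them. The p53 difference was 0.57 ± 0.18 (adjusted p 0.158 in limma), and it was called at 0.035 without BRAF replicate 1, an array of neither genotype. The remaining genes were the delayed rectifier kcnb2a, the A-type channels kcnd1 and kcnd3, kcnh6a, whose loss slows repolarization of the zebrafish heart, and the leak channels kcnk1b and kcnk5a. The family ranged in BRAF;p53 against wild type from -0.39 to 0.38.

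None of the 4 sodium channel probe sets passed. The pore-forming subunit gene scn8aa, expressed in neurons, read -1.12, -0.48 and -0.30 in BRAF embryos and 0.38, 0.06 and -0.12 in BRAF;p53 embryos, against 0.01, 0.47 and -0.10 in wild type. Every BRAF array lay below every array of the other 3 genotypes. BRAF minus wild type was -0.76 ± 0.24 with an adjusted p of 0.089 in limma, and BRAF;p53 minus BRAF was 0.74 ± 0.24 with 0.104. These values were -0.52 and 0.50 without BRAF replicate 1. The beta subunit gene scn3b read 0.33, 0.07 and 1.07 in p53 embryos, against -0.16, -0.12 and -0.02 in wild type, a difference of 0.59 ± 0.21 (adjusted p 0.21 in limma). Its highest value lay on p53 replicate 3, the array that stood apart, and without it the difference was 0.30.

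Another beta subunit gene, scn4bb, is named here after its values were seen. It read -0.35, 0.79 and 1.72 in BRAF embryos, against -0.26, 0.01 and -0.01 in wild type. BRAF replicate 1 was the lowest of the 3 and the only one not above wild type, and the difference over all arrays was 0.81 ± 0.39 (adjusted p 0.263 in limma). Without BRAF replicate 1 it was 1.35, with an adjusted p of 0.0108 in limma.

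Of the glutamate receptor genes, grin1a was lower in BRAF embryos on 1 of its 2 probe sets. It encodes the obligatory subunit of NMDA receptors. The first probe set (Entrez gene 767745) read -0.48, -0.43 and -0.07 in BRAF embryos, against 0.19, 0.22 and 0.15 in wild type. BRAF;p53 embryos read 0.09, 0.10 and 0.04, and p53 embryos -0.05, -0.04 and -0.46. The BRAF and the p53 arrays each lay below all wild-type and BRAF;p53 arrays, and overlapped with each other. BRAF minus wild type was -0.51 ± 0.13 (log2, SE, n = 3 each), 1.43-fold lower, with an adjusted p of 0.0426 in limma. The p53 difference was -0.38 ± 0.13 and did not pass (adjusted p 0.21 in limma). The interaction was 0.78 ± 0.19 with an adjusted p of 0.0497 in limma. The BRAF effect was 0.26 in p53 mutants, which did not pass, and -0.51 with intact p53. Without p53 replicate 3, the lowest p53 array here, the value in p53 mutants was 0.12 (adjusted p 0.676 in limma). A change of sign was therefore not shown.

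Both grin1a calls lay at the threshold and were absent from the second probe set. There the BRAF difference was -0.03 (0.11 without BRAF replicate 1) and the interaction -0.02, with adjusted p-values in limma of 0.915 and 0.968, and the arrays of all genotypes overlapped. BRAF against wild type on the first probe set was not called without BRAF;p53 replicate 1, 2 or 3 (adjusted p in limma 0.0672, 0.0658 and 0.0636). Nor was it called without BRAF replicate 1 or 2 (0.0925 and 0.124), or without wild-type replicate 1, 2 or 3 (0.112, 0.13 and 0.091). The interaction was called in 2 of the 12 fits with an array left out, those without BRAF replicate 3 and without p53 replicate 3, and elsewhere its adjusted p in limma lay between 0.0592 and 0.122. With both BRAF replicate 1 and p53 replicate 3 left out, the BRAF difference was -0.44 (adjusted p 0.0253 in limma) and the interaction 0.56 (0.0434).

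The AMPA receptor genes gria2a and gria2b did not pass. Their log2 differences were both 0.06 in BRAF;p53 against wild type, -0.25 and -0.18 in BRAF against wild type, and 0.14 and 0.11 in p53 against wild type. The BRAF values were -0.08 and 0.09 without BRAF replicate 1, and without p53 replicate 3 the p53 values were -0.01 and 0.12. In both genes the lowest of 12 values lay on BRAF replicate 1, at -0.61 for gria2a and -0.77 for gria2b.

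Genes of inhibitory transmission did not pass in any comparison. The glycine receptor gene glra4a had 2 probe sets, the first of which read -0.18, 0.02 and -0.19 in BRAF;p53 embryos and 0.26, -0.47 and -0.33 in BRAF embryos, against 0.16, 0.41 and 0.43 in wild type. The BRAF;p53 arrays lay below wild type, and 2 of the 3 BRAF arrays did. Its differences from wild type were -0.45 ± 0.18 in BRAF;p53 and -0.51 ± 0.18 in BRAF, with adjusted p-values in limma of 0.303 and 0.134. Without BRAF replicate 1 the BRAF difference was -0.73, with an adjusted p of 0.0121 in limma. The second glra4a probe set gave 0.10 in BRAF;p53 and -0.07 in BRAF. All 5 glycine receptor probe sets, which stand for 4 genes, were below 0 in p53 against wild type, between -0.26 and -0.08, with 0 called. In that comparison 24 of the 66 members and 7698 of all 15502 probe sets were lower.

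Neither GABA-A receptor gene passed. For gabrb2a, a beta subunit, the differences from wild type were -0.11 in BRAF;p53, 0.06 in BRAF and 0.02 in p53 embryos. For gabrr2b, a rho subunit of the kind known from the retina, they were 0.02, 0.05 and 0.05, with a standard error of 0.08.

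Glutamate decarboxylases make GABA. The gad1b probe set read -0.56, -0.43 and -0.19 in BRAF;p53 embryos, against 0.11, -0.01 and 0.23 in wild type, and p53 embryos read 0.01, 0.40 and -0.14. BRAF;p53 arrays lay below the arrays of both, while BRAF embryos, at -0.46, 0.11 and 0.16, overlapped with BRAF;p53. The differences were -0.50 ± 0.18 from wild type and -0.48 ± 0.18 from p53, with adjusted p-values in limma of 0.24 and 0.228. Without BRAF replicate 1 and p53 replicate 3 the difference from p53 was -0.60, with an adjusted p of 0.0332 in limma. The arrays of gad2 gave 0.06 ± 0.26 in BRAF;p53 against wild type.

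Among the nicotinic acetylcholine receptor genes, chrne and chrnb3a came closest to the threshold. chrne encodes the epsilon subunit of the muscle receptor, which in mammals replaces the gamma subunit as the neuromuscular junction matures. It read -0.20, -0.00 and -0.01 in BRAF;p53 embryos and 0.58, 0.40 and 0.18 in BRAF embryos, and wild type read 0.22, 0.04 and -0.01. BRAF arrays all lay above BRAF;p53 arrays but overlapped with wild type. BRAF;p53 minus BRAF was -0.46 ± 0.12 with an adjusted p of 0.0546 in limma, and it was called without BRAF replicate 3 (0.0275) and without p53 replicate 3 (0.0445).

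chrnb3a, a beta subunit of neuronal receptors, read -0.00, -0.51 and -0.82 in BRAF embryos, against -0.00, 0.30 and 0.01 in wild type. BRAF replicate 1 lay among the wild-type values and the other 2 below them, and the difference was -0.55 ± 0.18 (adjusted p 0.101 in limma). Without BRAF replicate 1 it was -0.77, with an adjusted p of 0.00644 in limma. The muscle subunit chrna1, chrna7a, which forms receptors of identical subunits in mammals, and chrnb3b did not pass.

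On the release side, the 8 synaptotagmin probe sets shared a small offset that no test passed. All 8 lay below 0 in BRAF;p53 against p53, between -0.29 and -0.16 with a median of -0.23, and 0 were called. In BRAF;p53 against wild type 7 of 8 lay below 0, with a median of -0.15. In p53 against wild type 7 of 8 lay above 0, with a median of 0.09. The 8 probe sets stand for 6 genes. In BRAF;p53 against p53 40 of the 66 members were lower, and 8140 of all 15502 probe sets. Of all probe sets 46.1% were higher in BRAF;p53 against wild type and 50.3% in p53 against wild type. These comparisons share arrays, and the median over all probe sets in BRAF;p53 against p53 was -0.01. Signs within a family were not tested.

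The main calcium sensor of fast release, syt1a, had 2 probe sets. The first read -0.16, -0.22 and -0.14 in BRAF;p53 embryos, against 0.06, 0.16 and 0.10 in p53 embryos and -0.06, -0.16 and 0.06 in wild type. BRAF;p53 arrays lay below the p53 arrays and overlapped with wild type. Its difference from p53 was -0.28 ± 0.09 (adjusted p 0.15 in limma), and that of the second probe set was -0.17 ± 0.20. syt4, found on vesicles of axons and dendrites, differed from p53 by -0.27 ± 0.10, and syt11a, which does not bind calcium in mammals, by -0.26 ± 0.10 on its probe set with the smaller F p-value. Neither passed in limma, at adjusted p-values of 0.203 and 0.259.

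None of the SNARE probe sets passed. All 9 probe sets, which stand for 8 genes, lay above 0 in p53 against wild type, between 0.02 and 0.25, with 0 called. In that comparison 63.6% of the members and 50.3% of all probe sets lay above 0. snap25a and snap25b encode the SNARE of the nerve ending membrane. They stood at 0.04 ± 0.15 and -0.08 ± 0.09 in BRAF;p53 against wild type, in BRAF against wild type at -0.03 and -0.07, and in p53 against wild type at 0.07 and 0.11. The 95% intervals of these differences put any change in snap25b well within a factor of 2. vamp8, known in mammals from endosomes and exocrine cells, gave the widest difference of the family.

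The vamp8 probe set read 0.11, 0.47 and 0.12 in BRAF;p53 embryos, against -0.34, -0.42 and -0.26 in wild type. The BRAF arrays, at -0.67, 0.03 and 0.55, overlapped with both. The p53 arrays, at -0.60, -0.03 and 0.10, overlapped with wild type and lay below the BRAF;p53 arrays. BRAF;p53 minus wild type was 0.58 ± 0.27 with an adjusted p of 0.402 in limma, and 0.0345 when those 2 genotypes were fitted alone.

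Synapsins tether vesicles in reserve. The syn1 probe set read -0.21, -0.15 and -0.01 in BRAF;p53 embryos and -0.01, -0.12 and -0.28 in BRAF embryos. p53 embryos read 0.25, 0.06 and 0.22, and wild type 0.05, 0.01 and 0.18. BRAF;p53 and BRAF arrays all lay below the arrays of p53 and wild type. BRAF;p53 minus p53 was -0.30 ± 0.10 (adjusted p 0.16 in limma) and BRAF minus wild type -0.21 ± 0.10 (adjusted p 0.261 in limma). The probe set with 2 symbols, which cannot be assigned to syn2b, differed by -0.41 ± 0.24 between BRAF;p53 and wild type. Its BRAF;p53 arrays lay below all wild-type and BRAF arrays. Without p53 replicate 3 it was called in limma in BRAF;p53 against p53 (-0.55, adjusted p 0.0337) and against BRAF (-0.53, 0.0181). The interaction was called there too (-0.67, 0.0439), but the difference from wild type was not (0.0804). That difference was called in limma without both BRAF replicate 1 and p53 replicate 3 (adjusted p 0.0355), where 5.91% of all probe sets were called. It was also called when only those 2 genotypes were fitted (0.0333).

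The pan-neuronal gene elavl3 encodes the RNA-binding protein HuC and was measured by 4 probe sets. The first read 0.68, 0.23 and 0.81 in BRAF;p53 embryos and -1.63, -0.16 and 0.26 in BRAF embryos. p53 embryos read -0.56, -0.20 and 0.63, and wild type -0.56, 0.07 and -0.07. The BRAF;p53 arrays lay above wild type but overlapped with BRAF and p53, and the lowest value by far was that of BRAF replicate 1. Over the 4 probe sets, BRAF;p53 exceeded wild type by 0.48 to 0.76 with adjusted p-values in limma of 0.506 to 0.641.

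BRAF;p53 against BRAF gave 0.35 to 1.08 over the 4 elavl3 probe sets, with adjusted p-values in limma of 0.184 to 0.445. It gave 0.08 to 0.52 without BRAF replicate 1, with adjusted p-values in limma of 0.434 to 0.892. BRAF replicate 1 held the lowest of the 12 values on all 4, between -1.93 and -0.70. The probe sets did not keep 1 sign in BRAF against wild type, at -0.32 to 0.13, and without BRAF replicate 1 all 4 were above 0, at 0.24 to 0.40. Without BRAF replicate 1 and p53 replicate 3 the first probe set differed by 0.95 between BRAF;p53 and p53, with an adjusted p of 0.0374 in limma. In that fit 7.92% of all probe sets were called and the other elavl3 probe sets were not. Without p53 replicate 3 these gave 0.20, 0.49 and 0.42.

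elavl4 encodes HuD, found in maturing neurons. It read 0.39, 0.38 and 0.14 in BRAF;p53 embryos and -0.38, -0.04 and -0.13 in BRAF embryos, against -0.05, 0.04 and 0.05 in wild type. BRAF;p53 arrays lay above the arrays of both. p53 embryos, at -0.13, -0.07 and 0.44, overlapped with BRAF;p53 through replicate 3 alone. BRAF;p53 minus BRAF was 0.49 ± 0.15 with an adjusted p of 0.0939 in limma, 0.025 without p53 replicate 3 and 0.209 without BRAF replicate 1. BRAF;p53 minus wild type was 0.29 ± 0.15 with 0.473. After quantile normalization BRAF;p53 minus BRAF was 0.54 (adjusted p 0.0358 in limma). Without both BRAF replicate 1 and p53 replicate 3 it was 0.39 (0.0382), where 7.5% of all probe sets were called. In that fit BRAF;p53 minus p53 was 0.40 (0.0326) and the interaction 0.51 (0.0468), with 7.92% and 9.48% of all probe sets called.

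**Figure D4:**
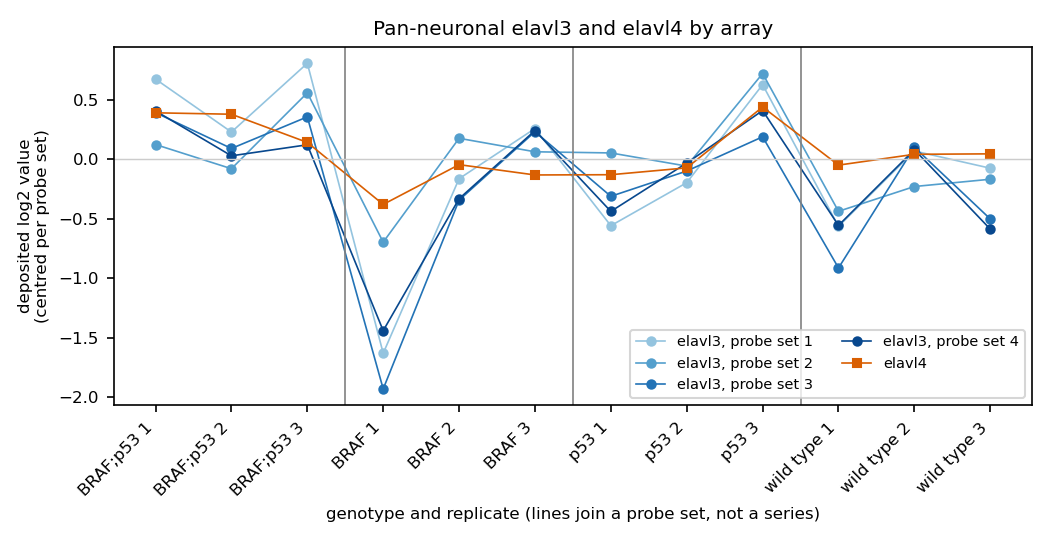
Deposited log2 values of the 4 elavl3 probe sets and of elavl4 on each of the 12 arrays. Lines join the values of a probe set and mark no series. BRAF replicate 1 is the lowest array for all 5 probe sets, with elavl3 values between -1.93 and -0.70.

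None of the remaining RNA-binding and cytoskeletal members passed over all 12 arrays. elavl2, which is neuronal in part, differed from wild type by -0.00 in BRAF;p53, 0.26 in BRAF (0.14 without BRAF replicate 1) and -0.08 in p53 embryos. stmn2a, a growth cone protein gene, differed by -0.05, 0.07 and -0.03, with a standard error of 0.11. stmn1b read -0.56, -0.40 and -0.25 in BRAF embryos on its first probe set, against -0.00, 0.18 and -0.06 in wild type, where the arrays did not overlap. The difference was -0.44 ± 0.18 (adjusted p 0.192 in limma), and on the second stmn1b probe set it was -0.11.

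BRAF replicate 1 held an unequal share of the members' lowest values. That array held the lowest of 12 values for 21 of the 66 members (31.8%), against 11.7% of all probe sets. It held the highest value for 14 members (21.2%), against 33.2% of all. The 21 were the probe sets of gria2a, gria2b, grin1a (both), elavl3 (all 4), elavl4, gad2, glra1, kcnk5a, scn4bb, scn8aa, snap25a, stmn4, syt11a (both) and vamp8, and 1 each of stmn1b and syt1a. Other neuronal genes went the other way, since elavl2, stmn2a, gabrb2a and kcnn1b had their highest value on the same array. Genes outside the naming rule in this list are named after their values were seen. The lowest glra1 value was -1.34, against -0.54 for the next lowest array. This gene, a glycine receptor subunit, is named here after its values were seen. p53 replicate 3 held the lowest value for 11 members (16.7%), close to the 15.1% of all probe sets.

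**Figure D5:**
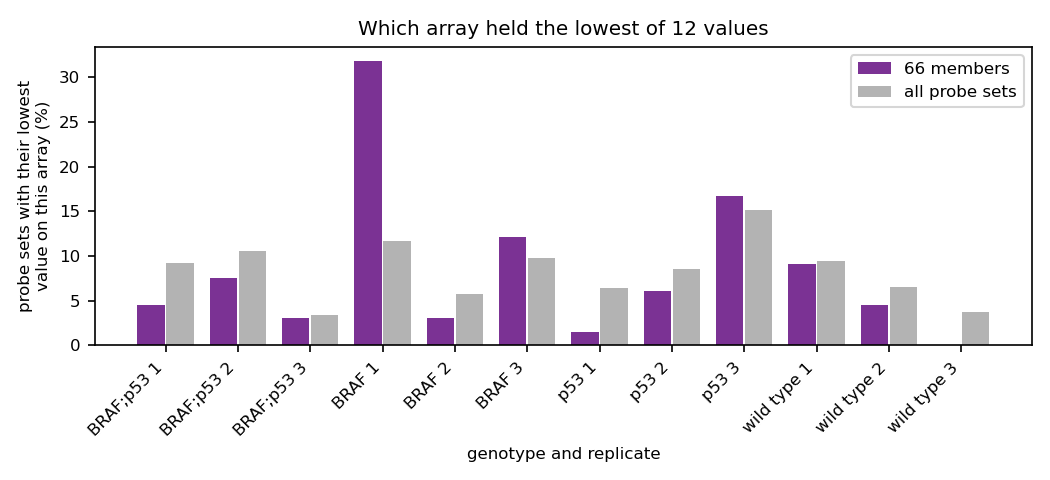
Share of probe sets, in percent, whose lowest of 12 values lay on each array, for the 66 members (purple) and for all 15502 probe sets (grey). The purple bar of BRAF replicate 1 reaches 31.8% where the grey bar stands at 11.7%.

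The BRAF genotype varied most for these genes. Its 3 arrays had the widest SD of the 4 genotypes for 42 of 66 members (63.6%), against 41.8% of all probe sets. The median SD of a member was 0.23 in BRAF embryos, 0.17 in p53 embryos, 0.10 in BRAF;p53 embryos and 0.11 in wild type. Over the members alone, BRAF replicate 1 correlated with BRAF replicates 2 and 3 at 0.33 and 0.07, while these correlated at 0.75 with each other.

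Leaving out BRAF replicate 1 and p53 replicate 3 raised the number of called members and the background together. The p53 group then held only the samples named 1a and 1b, which may not be independent. In limma, BRAF against wild type then called 8 members (12.1%) and 11.4% of all probe sets. BRAF;p53 against wild type called 2 (3.03%) against 5.91%, and p53 against wild type 1 (1.52%) against 4.44%. BRAF;p53 against p53 called 6 (9.09%) against 7.92%, BRAF;p53 against BRAF 5 (7.58%) against 7.5%, and the interaction 6 (9.09%) against 9.48%. The 8 in BRAF against wild type were kcnn1b, scn4bb and kcnh2a, which were higher, and cacng1a, chrnb3a, glra4a, grin1a and elavl1b, which were lower. Each share stayed near or below that of all probe sets.

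Other genes of the synapse, listed beside the members and outside the symbol rule, gave a few calls. Of 42 presynaptic and transmitter genes 13 were measured, on 21 probe sets. There 1 probe set (4.76%) passed in 1 comparison, where 6.41% of all probe sets passed. It was that of nsfa, the ATPase that recycles SNARE complexes, at -0.49 ± 0.12 in BRAF against wild type (adjusted p 0.0351 in limma). The call was lost without BRAF;p53 replicate 3, without any 1 BRAF array and without any 1 wild-type array (adjusted p in limma 0.0506 to 0.133), and the other nsfa probe set stood at 0.04. Of 23 postsynaptic genes 7 were measured, on 7 probe sets, and musk alone passed. In each comparison where it passed this was 14.3% of the list, against 1.83% to 3.21% of all probe sets.

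musk encodes the kinase that organizes acetylcholine receptors at the neuromuscular junction. It read 0.40, 0.41 and 0.51 in BRAF;p53 embryos and -0.84, -0.97 and -0.83 in p53 embryos, against -0.12, 0.13 and -0.49 in wild type. BRAF embryos read 0.04, 0.06 and -0.04. BRAF;p53 arrays were the highest of the 12 and p53 arrays the lowest. BRAF;p53 exceeded p53 by 1.32 ± 0.13 with an adjusted p of 0.000422 in limma, and the interaction was 1.14 ± 0.19 with 0.00802. Both passed in 12 of 12 fits with an array left out. BRAF;p53 minus wild type was 0.60 ± 0.13 (adjusted p 0.0464 in limma), and of those 12 fits it was called only without BRAF replicate 1, p53 replicate 3 or wild-type replicate 2. The p53 difference from wild type was -0.72 ± 0.13 (adjusted p 0.0211 in limma), lost without p53 replicate 1 or 2 and without wild-type replicate 1 or 2.

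Of 34 other channel and pump genes 17 were measured, on 27 probe sets. Only atp2a2a passed (3.7% of the list in each comparison where it did, against 3.21% to 6.41% of all probe sets). It encodes a calcium pump of the sarcoplasmic and endoplasmic reticulum. The probe set that passed read 1.37, 1.24 and 1.25 in BRAF embryos, against -0.06, -0.14 and 0.21 in wild type. BRAF;p53 embryos read -0.04, -0.18 and -0.02, and p53 embryos 0.10, 0.02 and -0.08. The BRAF arrays stood apart from all others. BRAF minus wild type was 1.29 ± 0.11 (adjusted p 4.27e-05 in limma), BRAF;p53 minus BRAF was -1.37 ± 0.11 (5.78e-05) and the interaction -1.38 ± 0.15 (0.000621), and each passed in 12 of 12 fits with an array left out. With trend and robust settings the SE of the interaction was 0.34, and it was not called (adjusted p 0.0558 in limma). The other atp2a2a probe set gave -0.10 in BRAF against wild type.

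Lists of cell type markers were read beside the members. Of 25 genes of neurons outside the members 17 were measured, and in BRAF against wild type 14 of them lay below 0 and 3 above, with a median of -0.11. Their mean per array ran from -0.22 to -0.14 in BRAF embryos, against -0.01 to 0.08 in wild type, and without uchl1 from -0.06 to 0.02, against -0.01 to 0.07. uchl1, the neuronal ubiquitin hydrolase, was the only gene of this list to pass, at -2.78 ± 0.47 (adjusted p 0.0047 in limma). It read -4.02, -2.32 and -1.46 in BRAF embryos, against 0.04, 0.26 and 0.25 in wild type, and BRAF;p53 exceeded BRAF by 2.59 ± 0.47 (adjusted p 0.0108 in limma). Of the list's probe sets 4.55% passed in BRAF against wild type, against 6.41% of all, and 4.55% in BRAF;p53 against BRAF, against 4.5%. Of all probe sets 57.9% were higher in BRAF against wild type, with a median of 0.05. The part of these markers in the member results was not tested.

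Other marker lists gave scattered calls. In BRAF against wild type 8.33% of radial glia and astroglia, 10% of photoreceptor and 6.67% of muscle probe sets passed, against 6.41% of all. Each of these shares came from 1 probe set. Of 12 genes of radial glia and astroglia 9 were measured, with a median of -0.21 in BRAF against wild type. There glula, a glutamine synthetase gene, passed at -0.53 ± 0.14 (adjusted p 0.0445 in limma), called only without BRAF replicate 2 or p53 replicate 3 among the 12 fits with an array left out. Of 12 photoreceptor genes 8 were measured, and gnb1b, a G protein subunit gene expressed beyond the eye as well, passed at -0.66 ± 0.14 in BRAF against wild type (adjusted p 0.014 in limma). That call was lost without wild-type replicate 2. It also passed at 0.64 ± 0.14 in BRAF;p53 against BRAF (0.0234), lost without BRAF;p53 or BRAF replicate 1 or 2, and at 0.82 ± 0.19 in the interaction (0.0429), called among the 12 fits only without p53 replicate 3 or wild-type replicate 3. Most of the 8 photoreceptor genes went the other way. In BRAF against wild type 6 lay above 0 and 2 below, with a median of 0.08. In BRAF;p53 against BRAF and in the interaction 2 lay above and 6 below, with medians of -0.21 and -0.25. Among muscle genes desma passed in BRAF against wild type, at 0.62 ± 0.15 (adjusted p 0.0365 in limma). Among the 12 fits it was called only without BRAF replicate 2, p53 replicate 2 or 3, or wild-type replicate 3. Of the 13 measured muscle genes desma was the only 1 above 0 there, with 12 below and a median of -0.03. The 3 measured of 6 genes of myelinating glia had a median of -0.48 in BRAF;p53 against wild type, and the 2 measured of 5 heart genes 0.30, with 0 called in either list.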

How the data were processed

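Affymetrix arrays carried total RNA from 12 samples, 3 per genotype, grouped and numbered by their titles. The log2 values deposited by the authors are GCRMA output per the submitters' processing notes, without a version. Later steps are not stated and were inferred from the values. On the linear scale, the median over the 12 arrays was 1 within 0.0001 for 13937 of 15617 probe sets and lower for 1680. Brightness is thus unknown, and neither a filter nor a pseudocount was used. Array medians ran from -0.04 to 0.08. Arrays have no depth, so precision is set by how many there are.

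Members were found by symbol in the platform annotation, and all 65 single symbols were found by Entrez identifier under the same name. Members and gene lists were chosen with earlier results of these data known. Tests used lmFit and eBayes of limma 3.58.1 under R 4.3.3, with 1 mean per genotype over 12 arrays. P-values were two-sided and adjusted by Benjamini-Hochberg over 15502 probe sets, at a threshold of 0.05. The 115 array controls were left out, and 0 of them were called when fitted with the rest. The method was tested on simulated data with the same spread in all genotypes. In BRAF;p53 against wild type it recovered 38% of true log2 differences of 0.5 and 76% of those of 1. It recovered 94% of those of 2 and 100% of those of 3, and 6 of its 160 calls were false. Many differences near 0.5 would thus be missed. Members were named if they passed in a comparison, if they were among 13 listed neuronal genes, of which 8 were measured, or if their probe set had 1 of the 2 smallest F p-values of its family. List genes were named if they passed or to mark a range, and a list gene with several probe sets was averaged. To check replicate numbers as pairs, deviations from genotype means were correlated in 18 same-numbered pairs. These ran from -0.32 to 0.36, with 7 over 0.1. All 3 pairs of BRAF with p53 were over 0.1, at 0.14 to 0.35, and in no other pair of genotypes were all 3. BRAF and p53 embryos are not compared with each other here, but both enter the interaction. No pairing was assumed, and a fit with the replicate number as a block is among the alternatives. The closing section gives the alternatives. Figures were drawn in matplotlib 3.10.9, with numpy 2.4.6 and pandas 2.3.3 under Python 3.11.15. Sequences and coordinates were not used here.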

Additional observations from a re-analysis of the deposited data

Results flagged for a closer look

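The first grin1a probe set was the only named member whose BRAF effect differed between p53 backgrounds by a test of the difference itself. BRAF;p53 minus p53 was 0.26 and BRAF minus wild type -0.51, a difference of 0.78 on the log2 scale with an adjusted p of 0.0497 in limma. The call held in 2 of 12 fits with an array left out and in 2 of 8 other settings. The moderated F test of this probe set did not pass (adjusted p 0.0746 in limma). The second grin1a probe set gave -0.02. No test for outlying values of single genes was run in groups of 3 arrays.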

How the results depend on the processing

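All counts are of member probe sets called in limma. BRAF;p53 against wild type called 1 member, and 1 in each of 12 fits with an array left out. It called 2 without BRAF replicate 1 and p53 replicate 3, 3 when only those genotypes were fitted and 0 at an absolute log2 difference of at least 1. BRAF against wild type called 2, and 0 to 6 with an array left out (0 without wild-type replicate 1, 2 or 3, and 6 without BRAF replicate 1). It called 8 without both arrays, 1 with trend and robust settings, with 1 value per gene, without probe sets of median below 1 or at a log2 difference of at least 1, and 0 with only those genotypes. p53 against wild type called 0, 0 to 1 with an array left out and 1 without both. BRAF;p53 against p53 called 1, 1 to 2 with an array left out, 6 without both and 0 at a log2 difference of at least 1. BRAF;p53 against BRAF called 1, and 0 to 4 with an array left out (0 without BRAF;p53 replicate 1, 2 or 3, 3 without BRAF replicate 1 or 3, 4 without p53 replicate 3). It called 5 without both, 2 after quantile normalization, and 0 without probe sets of median below 1 or with only those genotypes. The interaction called 1, 0 to 2 with an array left out, 6 without both, and 0 with array medians at 0, trend and robust settings, p53 samples 1a and 1b averaged, 1 value per gene, probe sets of median below 1 left out or a log2 difference of at least 1. The F test called 2, 2 to 6 with an array left out, 10 without both, 4 after quantile normalization and 1 without probe sets of median below 1. Leaving out probe sets of median below 1 removes kcnn1b itself. Its calls in BRAF against wild type, BRAF;p53 against BRAF and the F test were therefore not retested in that setting. With the replicate number as a block, BRAF against wild type called 1 and the interaction 0, since grin1a stood at adjusted p-values of 0.0706 and 0.0805, and the other counts were those without it. Among list genes the block also ended the calls of musk in BRAF;p53 against wild type (0.0661), glula in BRAF against wild type (0.0528) and gnb1b in the interaction (0.0722). The numbers were not taken to pair the samples. Over all probe sets, BRAF;p53 against wild type called 302, but 774 after quantile normalization and 836 with only those genotypes. BRAF against wild type called 993, but 598 with only those genotypes. p53 against wild type called 284, but 156 with 1a and 1b averaged and 105 with only those genotypes. BRAF;p53 against p53 called 456, but 697 after quantile normalization and 254 with 1a and 1b averaged, and the interaction 497, but 312 with them averaged. Without both arrays these counts were 916, 1766, 688 and 1227 for the first 4 comparisons, 1162 for BRAF;p53 against BRAF, 1469 for the interaction and 2629 for the F test. With an array left out they ran from 162 to 510, 595 to 1188, 161 to 466, 179 to 688, 302 to 982, 284 to 787 and 983 to 1748 in the same order. At a log2 difference of at least 1 they were 145, 350, 121, 171, 220 and 317. Fits of only the genotypes compared were not run for the interaction and the F test, which use all 4. Among the named members' results, 4291 kept their side of the threshold, 36 gained a call, 36 lost one and 0 changed the sign of a called value. cacng1a was called in both of its comparisons in every refit, but not at a log2 difference of at least 1. The list genes' alternatives were chosen after seeing the data. Where a call was lost with fewer arrays the fit also had fewer degrees of freedom, and other causes were not tested. Signal over background is unknown, so dim and bright probe sets cannot be told apart.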

Other observations

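Within genes measured by several probe sets, the sign of the difference varied. Of the 7 such member genes, the probe sets of 3 shared a sign in BRAF;p53 against wild type, of 4 in BRAF against wild type and of 7 in p53 against wild type. Both syt11a probe sets stayed close in each comparison: they gave -0.18 and -0.14 in BRAF;p53 against wild type, -0.18 and -0.19 in BRAF against wild type, and 0.11 and 0.12 in p53 against wild type.

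The presynaptic list held 3 genes above 0 and 10 below in BRAF;p53 against wild type, with a median of -0.11 and a range of -0.27 for ddc, the decarboxylase of dopamine and serotonin synthesis, to 0.14 for sncb, a synuclein gene. The other channels and pumps held 3 above and 14 below, with a median of -0.07, and 0 of these probe sets were called in either list. Over all probe sets the median was -0.01, and 46.1% were higher.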
